A study of Neurospora crassa with 5 samples.

Results

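The 200 most abundant transcript rows of Neurospora crassa crossing cultures are described here, out of 10591 gene rows with counts. They were chosen by level alone. Each library's counts were divided by the library's total and expressed per 1000000 counts (CPM), the 5 libraries were averaged, and the 200 rows of highest mean were kept. That level is therefore the criterion of choice and not a result. The RefSeq gene table classes 3 of the 200 rows as ribosomal RNA (rRNA), 194 as protein-coding, 1 as non-coding RNA and 1 as a mitochondrial pseudogene, and 1 row, NCU16635, was not matched in it.

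The cultures belonged to the strain FGSC#4564, a mating-type mutant (mat 1-2-1) whose genotype, mat a[m1]s-3B with cyh-1, was shared by both groups. They had grown for 6 days on synthetic crossing medium, until protoperithecia were abundant. The uncrossed group (0 h, replicates 1 and 3) was harvested right before the cross, and the crossed group (replicates 1, 2 and 3) 2 h after conidia of the wild type FGSC#2489 had been added. A replicate was the fungal tissue of a single plate, so each library mixes hyphae, fruiting-body initials and asexual spores, and RNA of the added conidia can be present after the cross. No library of conidia alone was analysed here. In such bulk samples fewer cells of a type and less RNA per cell cannot be told apart. The libraries held 25817200 to 39639683 counts, and the smallest count of a member in any library was 5522, for which counting alone gives a relative SD of 1.35%. Crossed replicates 2 and 3 lay close to each other in most values below, while crossed replicate 1 often lay nearer to uncrossed replicate 3.

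A few kinds of transcript usually dominate fungal RNA. Ribosomal RNA outweighs all messenger RNA, and messengers for translation, chromatin, ATP production and the cell wall come next. In Neurospora crassa the aerial hyphae and conidia are coated with a hydrophobin, a small secreted protein that assembles into a water-repellent layer, and its gene eas (also called ccg-2) is controlled by the circadian clock and by light. Protoperithecia are coiled female structures that become perithecia after fertilisation by a conidium of the opposite mating type.

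The first and second rows by level were rRNA rows. NCU17319 took 9.02% and 14.3% of all counts in uncrossed replicates 1 and 3, and 13.6%, 24.8% and 24.2% in crossed replicates 1, 2 and 3. NCU15719 took 5.18% and 6.89% uncrossed and 5.67%, 8.99% and 9.34% crossed. The 95% Wilson interval of every share printed here was at most 0.0202 percentage points wide to each side, counting error only. The third rRNA row, NCU15828, stood far below them, at 261 and 466 CPM uncrossed and 349, 1786 and 802 CPM crossed on column totals. In all 3 rows crossed replicates 2 and 3 were highest and crossed replicate 1 lay within the uncrossed range, so the groups overlapped. The 3 rows did not keep 1 ratio: NCU17319 held 1.74 and 2.08 times the counts of NCU15719 uncrossed and 2.40, 2.75 and 2.59 times crossed. The gene table holds 212 rRNA rows, and the next of them ranked 2193 at 81.4 CPM. The sources used here do not say how reads were divided among near-identical rRNA copies or whether rRNA was depleted before sequencing, so the level of these rows is uncertain.

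**Figure D1:**
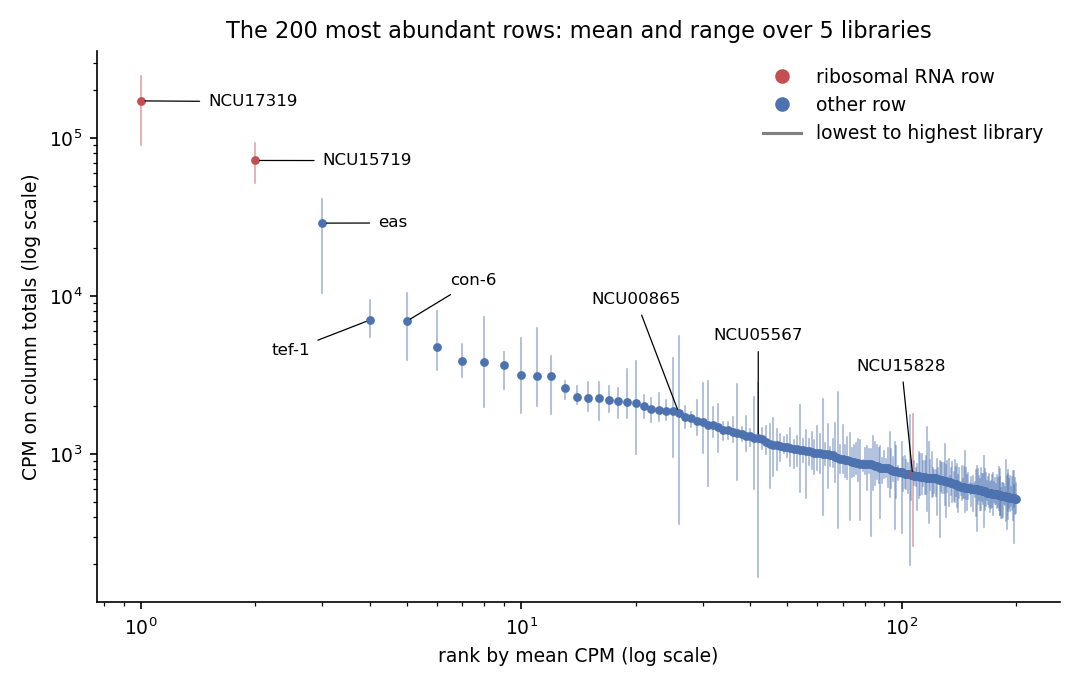
Mean CPM on column totals (vertical axis, log scale) against rank (horizontal axis, log scale) for the 200 rows, with a vertical line from the lowest to the highest of the 5 libraries. The rRNA rows NCU17319 and NCU15719 stand above all others, eas follows, and the long lines mark NCU05567, NCU00865 and NCU15828.

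Outside rRNA, the steepest part of the ranking was its start. The gene eas took 1.22% and 3.06% of the non-rRNA counts uncrossed and 3.76%, 6.22% and 5.85% crossed. The elongation factor gene tef-1, which codes for EF-1 alpha, took 1.10% and 0.925% uncrossed and 0.924%, 0.834% and 0.844% crossed. These shares moved in opposite senses: every crossed library was above both uncrossed libraries for eas and below both for tef-1. The difference for eas was 2.14 ± 1.3% (SD, n = 2) against 5.27 ± 1.33% (SD, n = 3), p = 0.2 by a two-sided exact permutation test. For tef-1 the same exact test gave p = 0.1, the smallest value that 2 against 3 libraries allow, and it depends on that small gap.

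The 197 members outside rRNA together took 29.9% and 31.4% of the non-rRNA counts uncrossed and 31.2%, 32.9% and 32.2% crossed. Their mean was 30.6 ± 1.09% (SD, n = 2) uncrossed and 32.1 ± 0.857% (SD, n = 3) crossed, a difference of 1.45 percentage points. The members were chosen by these levels, so the share is a description and no test of it is relied on. The sign of the difference depended on the choice: with the 200 rows taken by the uncrossed mean it was -0.216 percentage points. It also turned when eas was left out of both the members and the total, where the remaining 196 members took 29.0% and 29.3% uncrossed and 28.5%, 28.4% and 28.0% crossed. The 10 most abundant of the 197 held 5.73% to 11.5% of the non-rRNA counts in a library, and the first 50 held 15.4% to 19.2%. With rRNA included, the 200 members held 39.8% and 46.0% of all counts uncrossed and 44.5%, 55.6% and 55.0% crossed. Crossed replicates 2 and 3 were again apart from the other 3 libraries, with 33.9% and 33.6% of their counts in the rRNA members against 14.2% to 21.3%.

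**Figure D2:**
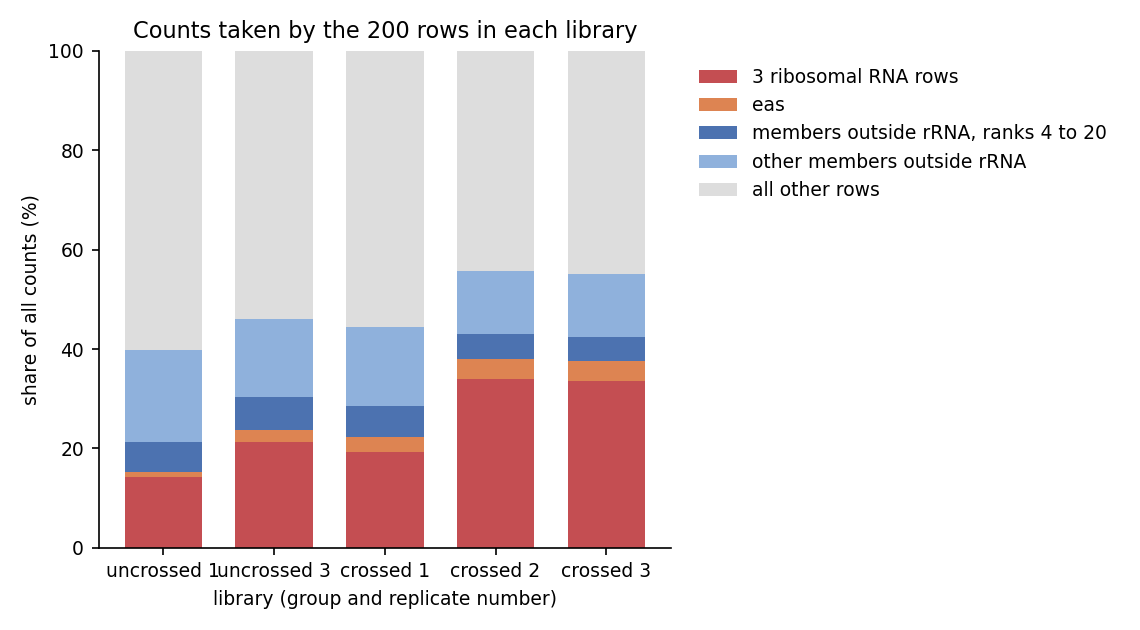
Share of all counts (%) in each of the 5 libraries, stacked by the 3 rRNA rows, eas, other members ranked up to 20, the remaining members and all other rows. Crossed replicates 2 and 3 give 33.9% and 33.6% of their counts to the rRNA rows, and the eas band is thinnest in uncrossed replicate 1, at 1.05% of all counts.

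Most members were among the first 200 rows in most libraries. Of the 200 members, 125 were among the first 200 rows of every library, 35 of 4 libraries, 28 of 3, 11 of 2 and 1 of a single library. That last member was for, the serine hydroxymethyltransferase gene named for the formate need of its mutants, which ranked 99 in uncrossed replicate 1 and 223 to 261 elsewhere. The conidiation gene con-10 went the other way, at ranks 213, 218 and 205 in uncrossed replicates 1 and 3 and crossed replicate 1 but 44 and 54 in crossed replicates 2 and 3. Ranking on the uncrossed mean alone kept 175 members (87.5%), and ranking by CPM per kilobase of gene span kept 153 (76.5%). The boundary itself was flat: NCU08500 (523.0 CPM) and the mitochondrial porin gene por (521.4 CPM) were the last inside, and NCU02744 (518.4 CPM) and NCU03102 (518.2 CPM) the first outside, all on column totals.

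Levels of different genes are comparable only per length, and on that scale several short genes ranked high. Per kilobase of gene span (introns included) eas reached 15284 CPM, con-6 7820.2 CPM and the glucose-repressible clock-controlled gene ccg-1 4715 CPM. The fruiting-body genes poi-2 and app followed at 4204 and 3999 CPM per kilobase, then NCU07449 at 2718, tef-1 at 2264 and hex-1 at 1845. So 5 of the first 6 of these non-rRNA genes are clock-controlled, conidiation or fruiting-body genes by name. The long gene do, the catalytic subunit of glucan synthase, stood at rank 409 per kilobase.

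Several properties that played no part in the choice can be set beside all rows. A gene symbol was present for 92 members (46.0%) and for 10.6% of all rows. The rule used counts not corrected for length, and the median gene span of protein-coding members was 2334.5 bp against 2127 bp for all protein-coding rows. Chromosome II carried 31 of the 194 protein-coding members (16.0%, against 10.5% of protein-coding rows), whereas IV carried 17 (8.76% against 15.2%) and III 16 (8.25% against 12.9%). Gene spans overlapped a neighbouring gene in 47 members (23.5%, against 22.9% of all rows), and without the counting rule for such reads these rows are uncertain. No member was a tRNA gene.

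Members also sat side by side. There were 12 pairs of directly adjacent members, holding 23 genes, against 5 pairs among the rows ranked 201 to 400. The histone genes hH3 and hH4-1 formed such a pair, and their ratio of CPM, not corrected for length, was 1.28 to 1.43 in the 5 libraries. The ubiquitin and ribosomal protein fusion gene ubi::crp-6 adjoined the ribosomal protein gene crp-5, at a ratio of 1.08 to 1.18. NCU09209 and NCU09210 stayed at a ratio of 0.846 to 0.882, the narrowest range among these pairs. The spans of hex-1 and NCU16405 overlap, and so do those of the transcription factor gene ada-1 and NCU16460, so for these 2 pairs shared reads can set the ratio.

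The comparison of crossed with uncrossed cultures asked which abundant transcripts differed 2 h after conidia were added. It was made with edgeR's quasi-likelihood test on the counts, fitted to 8638 genes with library scaling by the trimmed mean of M values (TMM). Values by library below are TMM-scaled CPM, in the order uncrossed replicates 1 and 3, then crossed replicates 1, 2 and 3. Fold changes are crossed against uncrossed on the log2 scale, and adjusted p-values are Benjamini-Hochberg values over all 8638 genes. At an adjusted p of 0.05 no member was called (0 higher, 0 lower), where the background was 0.0463% of the genes tested (0.0116% higher and 0.0347% lower). The members' adjusted p-values ran from 0.105 to 0.997. At an unadjusted p of 0.05 there were 42 members, against 21.3% of all genes tested. Of these, 21 were higher, against a background of 10.3%, and 21 lower, against 11.0%. In 80 members the groups did not overlap, against 41.9% of all genes, with 35 higher (17.5%, against 21.3%) and 45 lower (22.5%, against 20.6%). These shares are near the background. The count of 42 moved with single libraries, to 65 and 73 without crossed replicate 1 or uncrossed replicate 3, and to 20, 20 and 19 without uncrossed replicate 1 or crossed replicates 2 or 3.

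Other fits called some members. DESeq2 called 33 (16.5%, against 11.3% of the genes it tested), of which 18 were higher, against 5.31%, and 15 lower, against 5.99%. All 33 also had groups that did not overlap, but both come from the same counts, so this is no separate support. The same share among all genes that DESeq2 called was not computed. Without crossed replicate 1, edgeR called 16 members, against 8.84% of all genes, with 7 higher (against 4.19%) and 9 lower (against 4.65%). Without uncrossed replicate 3 it called 4, against 2.19%, with 1 higher (against 0.629%) and 3 lower (against 1.57%), and with any other library left out it called 0. The median log2 fold change of the members was -0.10, with 84 above 0 and 116 below, against 0.000797 over all genes tested. Library scaling moves this zero: on plain library sizes the median of all genes was -0.21 and that of the members -0.32, so every fold change below is relative to the TMM centre.

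**Figure D3:**
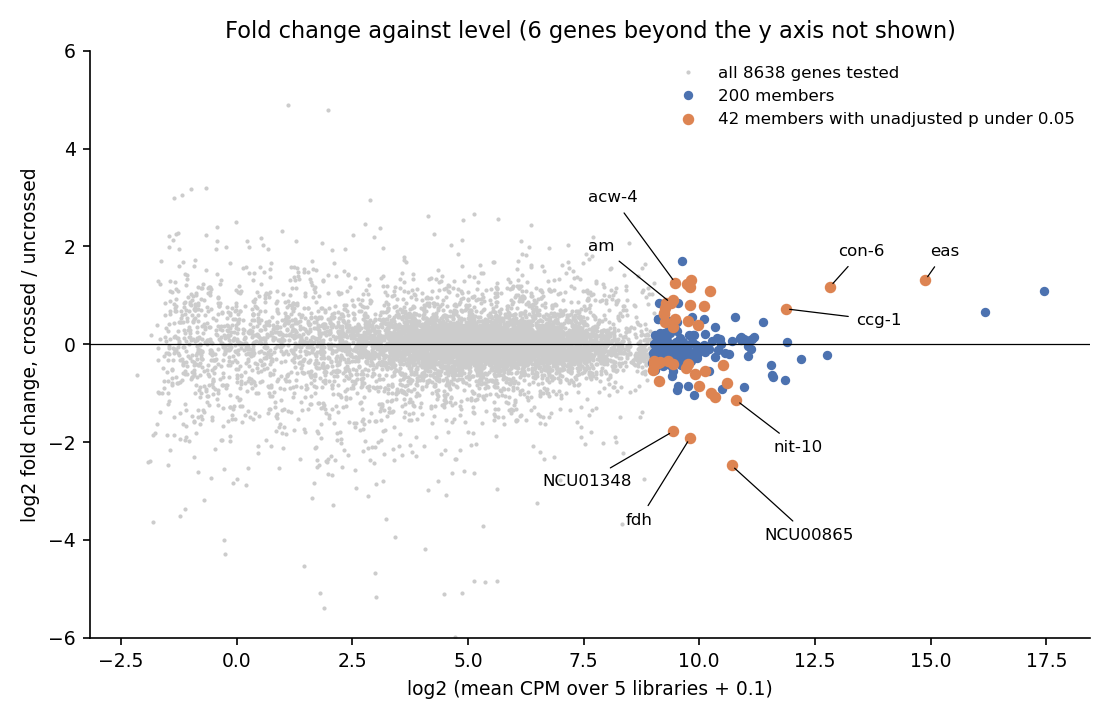
Log2 fold change of crossed over uncrossed (vertical axis) against log2 of mean CPM plus 0.1 (horizontal axis) for all 8638 genes tested (grey), the 200 members (blue) and the 42 members with an unadjusted p under 0.05 (orange). Members lie at the right edge on both sides of 0, with eas and con-6 above the line and NCU00865 and fdh farthest below it.

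Hydrophobin and conidiation transcripts had their highest values in crossed replicates 2 and 3, and 4 of the 5 conidial markers on the list were members. The hydrophobin gene eas had 9197 and 22810.3 CPM uncrossed and 27897, 47303 and 44024 CPM crossed. The groups did not overlap, yet uncrossed replicate 3 was over 2-fold above uncrossed replicate 1. The fitted log2 difference was 1.31 (SE 0.48) and edgeR gave adjusted p = 0.212, with 0.0239 to 0.581 over the alternative fits. The difference was 0.80 without uncrossed replicate 1 and 2.11 without uncrossed replicate 3. The conidiation gene con-6 had 3483 and 4788 CPM uncrossed and 4947, 12031 and 11122 CPM crossed. Here the groups did not overlap, but crossed replicate 1 exceeded uncrossed replicate 3 by little, and the log2 fold change was 1.18 (SE 0.44) with adjusted p = 0.212 by edgeR. For con-8 the values were 1953 and 2399 CPM uncrossed and 2304, 3358 and 3253 CPM crossed, and for con-10 they were 521 and 497 CPM uncrossed and 485, 1194 and 1048 CPM crossed. Crossed replicate 1 lay below uncrossed replicate 3 in both, so those groups overlapped. Of the 4 members, 2 had an unadjusted p under 0.05, both higher (against 10.3% of all genes tested), and none passed the adjusted test; their median log2 fold change was 1.01 against 0.000797 for all genes, and all 4 stayed above 0 on plain library sizes.

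The fifth conidial marker, con-13, was no member but was present, at 8.88 and 35.8 CPM uncrossed and 84.7, 142 and 138 CPM crossed. The 5 markers summed to 15162 and 30530.5 CPM uncrossed and 35718, 64029 and 59585 CPM crossed, and 0 of the 5 was at 0 in any library. Added conidia can bring such RNA, and crossing cultures can make conidia themselves. The part of this marker level, and of the rRNA share that was also highest in crossed replicates 2 and 3, in the values that follow was not tested.

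Clock-controlled and light-induced genes differed in direction. Of 19 such genes on the list 11 were members, 3 with an unadjusted p under 0.05 and a higher value and 1 with a lower one, against 10.3% and 11.0% of all genes tested, and none was called after adjustment. Over the whole list 8 were higher and 1 lower, with a median of 0.42. The members' median log2 fold change was 0.11, with 7 above 0, and -0.10 with 5 above 0 on plain library sizes. The gene ccg-1 had 2277 and 3082 CPM uncrossed and 3446, 5115 and 4727 CPM crossed, with every crossed library above both uncrossed libraries. On the log2 scale they differed by 0.73 (SE 0.25), and edgeR gave adjusted p = 0.199. The blue-light photoreceptor gene vvd had 2228 and 2365 CPM uncrossed and 2636, 1903 and 1940.1 CPM crossed, and those groups overlapped. The carotenoid genes differed from each other: al-2, which codes for phytoene synthase, had 2477 and 1689 CPM uncrossed and 1211, 1179 and 1218 CPM crossed, and al-1, which codes for phytoene dehydrogenase, had 1349 and 1394 CPM uncrossed and 1480.4, 2249 and 2299 CPM crossed. All crossed libraries were below both uncrossed libraries for al-2 (log2 fold change -0.79 (SE 0.19), or -0.49 without uncrossed replicate 1, adjusted p = 0.159 by edgeR) and above both for al-1. The clock-controlled members ccg-6 and ccg-16 were highest in uncrossed replicate 1. The gene ccg-16 had 1959.6 and 773 CPM uncrossed and 1057, 475 and 466 CPM crossed, and its groups overlapped through crossed replicate 1.

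The most abundant fruiting-body transcripts were highest in 1 of the uncrossed libraries. The genes poi-2 and app, both known as abundant transcripts of sexual development, were highest in uncrossed replicate 3. So was NCU07449, which is named by locus tag alone and is not on the fruiting-body list. It is set beside them only for its similar values. The values of poi-2 were 2999 and 7649 CPM uncrossed and 4385, 4473 and 4121 CPM crossed. Those of app were 2716 and 6978 CPM uncrossed and 4229.7, 2309.8 and 2238 CPM crossed, and those of NCU07449 were 1831 and 5929 CPM uncrossed and 2742, 2542 and 2283 CPM crossed. In each gene uncrossed replicate 1 was far below uncrossed replicate 3, so the groups overlapped. Of the 9 protoperithecial and perithecial genes on the list 3 were members, the third being the transcription factor gene Asm-1 at 476 and 718 CPM uncrossed and 642, 600.1 and 589 CPM crossed, and none had an unadjusted p under 0.05. Of all 9 listed genes 1 was higher and 2 lower at that threshold, against 10.3% and 11.0% of all genes tested. Both poi-2 and app were among the first 10 non-rRNA rows, but levels varied widely over the list. Its gene per-1 had 13.6 and 5.61 CPM uncrossed and 3.25, 3.58 and 2.63 CPM crossed. For asd-3 the values were 5.99 and 6.40 CPM uncrossed and 7.57, 12.8 and 13.7 CPM crossed. The pheromone gene mfa-1, listed here through its synonym poi-1, was 1 of the 2 lower genes. It had 61.0 and 59.7 CPM uncrossed and 29.7, 30.7 and 28.1 CPM crossed. The list of pheromone, pheromone receptor and mating-type genes, which also holds mfa-1, gave 0 members of 7, where 200 of all 10591 rows are members.

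**Figure D4:**
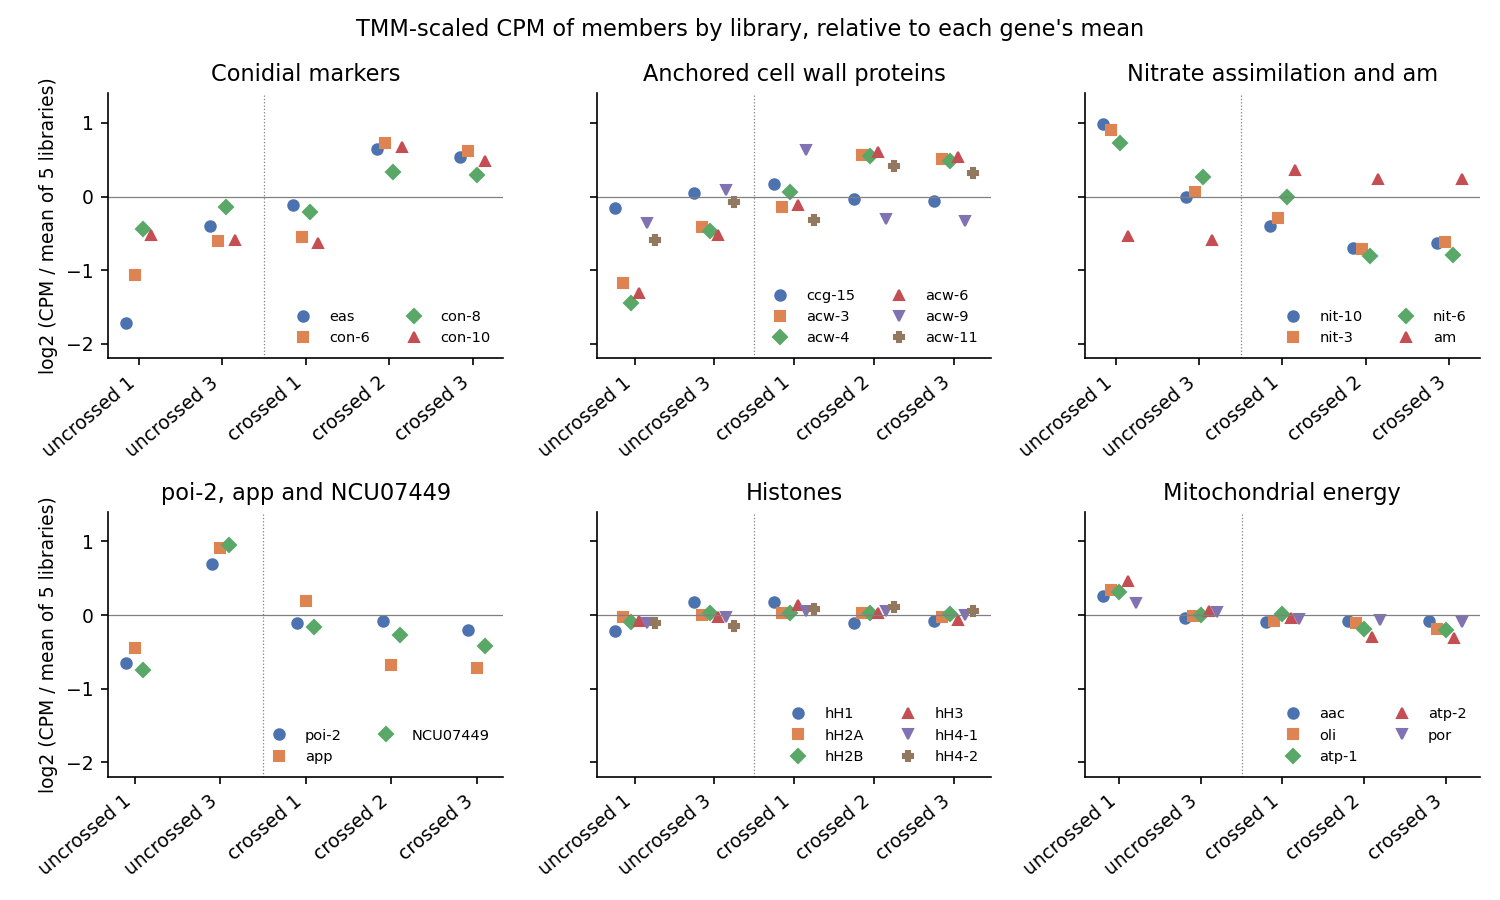
Log2 of each gene's TMM-scaled CPM in a library divided by its mean over the 5 libraries (vertical axis), for 6 groups of members in the 5 libraries (horizontal axis; the dotted line separates uncrossed from crossed). Conidial markers are highest in crossed replicates 2 and 3, the nitrate genes in uncrossed replicate 1 and poi-2, app and NCU07449 in uncrossed replicate 3, while the 6 histones stay close to 0 on this scale.

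Cell wall genes mostly had higher values in crossed libraries, by unequal amounts. Of 101 tested genes on the list 9 were members, all 9 with a fold change above 0, and 4 of them higher at an unadjusted p under 0.05, against 10.3% of all genes tested. Over the whole list 22 were higher and 6 lower at that threshold. That list was matched by symbol and takes in every glycoside hydrolase (gh) symbol, whether or not the enzyme acts on the fungal wall. The member gh13-1 was listed this way. On plain library sizes 7 of the 9 were above 0. None was called after adjustment, and DESeq2 called 3 higher, against 5.31%. Their median log2 fold change was 0.39, against 0.13 for the whole list and 0.000797 for all genes. The anchored cell wall protein gene acw-3 had 532 and 898 CPM uncrossed and 1084, 1781 and 1711 CPM crossed. It did not overlap between the groups (log2 fold change 1.09 (SE 0.33), adjusted p = 0.176 by edgeR). Named after their values were seen, acw-6 had 345 and 595 CPM uncrossed and 791, 1305 and 1235 CPM crossed and acw-4 had 263 and 518 CPM uncrossed and 747, 1046 and 1004 CPM crossed. Both had every crossed library above both uncrossed ones. Their log2 fold changes were 1.24 (SE 0.34) and 1.26 (SE 0.34), with an adjusted p of 0.164 and 0.164 by edgeR. By rank, acw-4 was at 499 and 205 uncrossed and 100, 53 and 58 crossed, so it is a member through its crossed level. As with the conidial markers, crossed replicates 2 and 3 were highest in these 3 genes. Uncrossed replicate 1 was lowest in them, as in the conidial markers other than con-10, where crossed replicate 1 was lowest.

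The other wall genes differed from that pattern. Another anchored protein gene, acw-9, had 735 and 1003 CPM uncrossed and 1455, 765 and 751 CPM crossed, highest in crossed replicate 1. The clock-controlled wall protein gene ccg-15 (acw-1) had 1962 and 2278 CPM uncrossed and 2479, 2147 and 2108 CPM crossed, with overlap. The glucanosyltransferase gene gel-3, whose product remodels wall glucan, had 985 and 1259 CPM uncrossed and 1325, 1508 and 1454 CPM crossed. For do, the glucan synthase gene, the values were 753 and 947 CPM uncrossed and 1082, 1121 and 1138 CPM crossed. In both gel-3 and do every crossed library was above both uncrossed libraries, with gaps smaller than those of acw-3.

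Nitrate assimilation genes had lower values in crossed libraries, while the gene for ammonium fixation had higher ones. The nitrate transporter gene nit-10 had 3541 and 1787 CPM uncrossed and 1356, 1103 and 1151 CPM crossed. The nitrate reductase gene nit-3 had 2435 and 1352 CPM uncrossed and 1054, 794 and 841 CPM crossed, and the nitrite reductase gene nit-6 had 2004 and 1454 CPM uncrossed and 1211, 694 and 702 CPM crossed. In all 3, uncrossed replicate 1 was highest, uncrossed replicate 3 next, and no crossed library reached it. Their log2 fold changes were -1.15 (SE 0.30), -1.08 (SE 0.28) and -0.99 (SE 0.31), with adjusted p = 0.164, 0.162 and 0.18 by edgeR. Without uncrossed replicate 1 the log2 fold changes of nit-10 and nit-3 were -0.57 and -0.59. The gene am, for the NADP-specific glutamate dehydrogenase that joins ammonium to 2-oxoglutarate, had 459.9 and 445 CPM uncrossed and 859, 790.0 and 791 CPM crossed. Both groups were tight and apart, giving a log2 fold change of 0.85 (SE 0.12) and the smallest adjusted p of any member, 0.105 by edgeR (2.22e-13 to 0.488 over the alternative fits). By rank, am was at 262 and 264 uncrossed and 79, 93 and 89 crossed. It is thus a member through its crossed level, so its choice and its difference are not independent. The methionine synthase gene met-8 had 4766 and 3153 CPM uncrossed and 3166, 2082 and 2196 CPM crossed, where crossed replicate 1 lay just above uncrossed replicate 3, and edgeR gave a log2 fold change of -0.67 (SE 0.28) at adjusted p = 0.24 (-0.35 without uncrossed replicate 1). Of the 6 members on the amino acid and nitrogen list, 1 was higher and 3 were lower at an unadjusted p of 0.05, against 10.3% and 11.0% of all genes tested. Over the whole list of 32 genes 2 were higher and 9 lower, with a median of -0.19 against -0.83 for the 6 members. DESeq2 called 1 of the 6 higher and 3 lower, against 5.31% and 5.99%.

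The genes fdh and tca-3 were taken for their small unadjusted p and stand for no group. The formate dehydrogenase gene fdh had 2159.9 and 1027 CPM uncrossed and 430.3, 389.7 and 442 CPM crossed. Uncrossed replicate 1 was about 2-fold above uncrossed replicate 3, and both stood above the 3 similar crossed libraries, for a log2 fold change of -1.92 (SE 0.31) with adjusted p = 0.126 by edgeR (5.65e-07 to 0.488 over the alternative fits). It ranked 22 and 60 in the uncrossed libraries and 247, 307 and 246 in the crossed ones. The aconitase gene tca-3 had 857 and 637 CPM uncrossed and 520.1, 398 and 407 CPM crossed, without overlap (log2 fold change -0.76 (SE 0.20), adjusted p = 0.161 by edgeR).

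Transcripts for mitochondrial ATP production had slightly lower values in crossed libraries. The 5 members of the respiration and ATP synthesis list all had fold changes below 0, with a median of -0.29, and 1 of them had an unadjusted p under 0.05; none was called after adjustment. The gene atp-2, for the beta subunit of ATP synthase, had 1149 and 865 CPM uncrossed and 811, 683 and 675 CPM crossed. Its groups did not overlap (log2 fold change -0.48 (SE 0.18), or -0.26 without uncrossed replicate 1, adjusted p = 0.214 by edgeR). The ADP/ATP carrier gene aac had 1921 and 1561 CPM uncrossed and 1498, 1519 and 1508 CPM crossed, and oli, for the proton-translocating ring subunit, had 1044 and 814 CPM uncrossed and 779, 764 and 722 CPM crossed. Every crossed library was below both uncrossed ones in both genes, and uncrossed replicate 1 was highest. Over the whole list of 52 genes the median was -0.29 too, with 1 higher and 18 lower at an unadjusted p of 0.05, against 10.3% and 11.0% of all genes tested. The plasma membrane proton pump gene pma-1 did not share the pattern, at 1968 and 2354 CPM uncrossed and 2615, 2145 and 2198 CPM crossed with overlap.

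Chaperone and cytoskeleton members were also below 0. The heat shock protein gene hsp70-1 had 1363 and 1069 CPM uncrossed and 930.3, 705 and 773 CPM crossed, and hsp70-2 had 901 and 725 CPM uncrossed and 559, 619.7 and 656 CPM crossed. In both genes no crossed library reached an uncrossed one, and the log2 fold changes were -0.60 (SE 0.19) and -0.41 (SE 0.15), with adjusted p = 0.18 and 0.215 by edgeR. Without uncrossed replicate 1 that of hsp70-2 was -0.25. The endoplasmic reticulum chaperone gene grp78 differed, at 828 and 835 CPM uncrossed and 856, 752 and 784 CPM crossed with overlap. The actin gene act had 1489 and 1247 CPM uncrossed and 1123, 833 and 864 CPM crossed, without overlap (log2 fold change -0.54 (SE 0.19), adjusted p = 0.201 by edgeR). The beta-tubulin gene Bml had 626 and 552 CPM uncrossed and 551, 477 and 494 CPM crossed, also without overlap. Reads of near-identical heat shock genes can be divided between copies, and the sources used here do not say how this was done.

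The listed members of the protein synthesis machinery showed small differences. The gene tef-1 had 8294 and 6894 CPM uncrossed and 6858, 6342 and 6348 CPM crossed. Every crossed library was below both uncrossed ones, crossed replicate 1 by little. The log2 fold change was only -0.22 (SE 0.18) with adjusted p = 0.478 by edgeR. It was -0.08 without uncrossed replicate 1 and -0.35 without uncrossed replicate 3. The translation factor gene eif5A had 855 and 713 CPM uncrossed and 624, 669 and 637 CPM crossed, also without overlap. The list of cytosolic ribosomal protein genes was matched by gene symbol alone. It gave 4 members of 11, all 4 with a fold change below 0 (median -0.12) and 0 with an unadjusted p under 0.05. Ribosomal protein genes named by locus tag alone are not on it, and 108 members have no other name. The number of ribosomal protein genes among the members is therefore not known. The whole list of 11 was lower than its members, with a median of -0.29. At that threshold 0 of the 11 were higher and 3 lower, against 10.3% and 11.0% of all genes tested. Of the 3 translation factor genes on their list 1 was lower, with a median of -0.28. The ribosomal protein gene cyh-2, known from cycloheximide resistance, had 876 and 741 CPM uncrossed and 629, 678 and 626 CPM crossed. The polyubiquitin gene ubi had 1281 and 1106 CPM uncrossed and 1286, 1237 and 1250.4 CPM crossed, with overlap, and its reads can be shared with ubi::crp-6.

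Transcripts of histones, the proteins that package DNA, varied little across the libraries on the TMM scale. Of 7 histone genes 6 were members, and 0 had an unadjusted p under 0.05. The gene hH2A had 1400.4 and 1424 CPM uncrossed and 1443, 1444 and 1392 CPM crossed, the smallest ratio of highest to lowest library of any member (1.04). The gene hH2B had 1568 and 1697 CPM uncrossed and 1703, 1698 and 1696 CPM crossed, and hH3 had 1800.2 and 1863 CPM uncrossed and 2096, 1939 and 1809 CPM crossed. The 6 fold changes were all above 0 with a median of 0.07 (5 of 6 with DESeq2 size factors), but on plain library sizes all 6 were below 0 with a median of -0.14. The steadiness is likewise a statement on scaling: on plain library sizes the ratio of highest to lowest library was 1.3 for hH2A and 1.26 for hH2B. The genes hH4-1 and hH4-2 code for the same kind of histone, so reads they share are uncertain.

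Glycolytic members had small ranges too. The glyceraldehyde-3-phosphate dehydrogenase gene gpd-1 had 2054 and 1777 CPM uncrossed and 2179.6, 1952 and 2064 CPM crossed, the aldolase gene fba had 1101 and 1047 CPM uncrossed and 1013, 1027 and 1069 CPM crossed, and the enolase gene emp-7 had 1174 and 997 CPM uncrossed and 1020.3, 872 and 918 CPM crossed. In gpd-1 and emp-7 the groups overlapped, and fba stayed within a highest to lowest ratio of 1.09 (1.41 on plain library sizes). Woronin bodies plug septal pores of injured hyphae, and hex-1, which codes for their core protein, had 3257 and 3817 CPM uncrossed and 3862, 2065 and 2036 CPM crossed. Crossed replicates 2 and 3 were lowest there and crossed replicate 1 highest. The thiamine synthesis gene nmt-1 had 1874 and 1684 CPM uncrossed and 2017, 1881 and 1924 CPM crossed, with every crossed library above both uncrossed ones by little.

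A few members with regulatory roles were named after their values were seen and stand for no list. The gene cpc-1, for the transcription activator of amino acid synthesis genes, had 1327 and 905 CPM uncrossed and 899, 913 and 939.8 CPM crossed. The small GTPase gene rho-1, which acts in cell wall synthesis and polarity, had 1049 and 1232 CPM uncrossed and 1233, 1042 and 1020.4 CPM crossed, and wsc-1, for a wall stress sensor, had 834 and 1001 CPM uncrossed and 1054, 883 and 867 CPM crossed. All 3 overlapped between the groups. The gene os-2, for the osmotic stress MAP kinase, had 484 and 492 CPM uncrossed and 569, 543 and 553 CPM crossed, with every crossed library slightly above both uncrossed ones. The gene cpc-2, for a ribosome-bound scaffold protein, had 668 and 618 CPM uncrossed and 514, 476 and 482 CPM crossed, with every crossed library below both uncrossed ones.

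The members with the smallest unadjusted p among those without overlap included several that the gene table names by locus tag alone. NCU06660 had 431 and 443 CPM uncrossed and 662, 779 and 762 CPM crossed, and NCU04951 had 423 and 418 CPM uncrossed and 617, 821 and 834 CPM crossed. NCU06781 had 695 and 710.0 CPM uncrossed and 999, 988 and 954 CPM crossed. In these 3 the uncrossed pair was tight and every crossed library lay above it. Their log2 fold changes were 0.75 (SE 0.13), 0.85 (SE 0.18) and 0.48 (SE 0.12), with adjusted p = 0.128, 0.145 and 0.16 by edgeR. NCU06660 ranked 286 and 265 uncrossed and 125, 96 and 99 crossed. NCU04951 ranked 290 and 291 uncrossed and 138, 85 and 80 crossed. Both are members through their crossed level, so their choice and their difference are not independent. NCU14174, the only member classed as non-coding RNA, had 739.8 and 794 CPM uncrossed and 1030.4, 1508 and 1404 CPM crossed. Its groups did not overlap either (log2 fold change 0.78 (SE 0.20), adjusted p = 0.162 by edgeR). On the lower side rap-1 had 686 and 577 CPM uncrossed and 427, 455 and 434 CPM crossed, a log2 difference of -0.53 (SE 0.13) at adjusted p = 0.159 by edgeR. It ranked 137 and 162 uncrossed and 250, 246 and 252 crossed, so it is a member through its uncrossed level.

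A few members spanned a wide range across the 5 libraries. NCU05567 had 1154 and 1758 CPM uncrossed and 2586, 191 and 202 CPM crossed, a ratio of highest to lowest of 13.5. Crossed replicate 1 was the highest library and crossed replicates 2 and 3 the lowest, so the spread lay within the crossed group. NCU00865 had 4911 and 1628 CPM uncrossed and 919, 417 and 428 CPM crossed, a ratio of 11.8, and NCU01348 had 1544 and 866 CPM uncrossed and 586, 228 and 238 CPM crossed. In both, uncrossed replicate 1 was highest and crossed replicates 2 and 3 lowest, without overlap. Their log2 fold changes were -2.47 (SE 0.58) and -1.78 (SE 0.50), with adjusted p = 0.158 and 0.167 by edgeR. Without uncrossed replicate 1 that of NCU00865 was -1.47. At the other end, NCU07437 had 565 and 536 CPM uncrossed and 566, 559 and 544 CPM crossed and NCU04272 had 580.1 and 572 CPM uncrossed and 616, 615 and 615 CPM crossed, ratios of 1.06 and 1.08 that became 1.34 and 1.26 on plain library sizes. The median ratio was 1.43 over the members and 1.44 over all genes tested. Uncrossed replicate 1 was the highest library for 88 members (44.0%, against 32.0% of all genes tested).

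Rows without a gene name or of unusual class were also abundant. NCU16635, which was not matched in the gene table, had 2358 and 1977 CPM uncrossed and 2111, 2796 and 2350.0 CPM crossed, with overlap. The mitochondrial pseudogene row NCU16301 had 752 and 864 CPM uncrossed and 717, 1012 and 1021 CPM crossed, and crossed replicates 2 and 3 were highest. NCU06110, a protein-coding row with no symbol, had 4382 and 3104 CPM uncrossed and 4429, 3556 and 3641 CPM crossed, with overlap. In all, 108 members are named by locus tag alone.

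Relative expression per stage, with limits, is given for all 200 members in the authors' deposited table. In the authors' deposited table the intervals of the 2 stages were apart for 194 members (97.0%) and for 79.1% of all genes tested here. By direction the authors' deposited table had 39 members (19.5%) higher in crossed cultures, against 16.4% of all genes, and 155 (77.5%) higher in uncrossed ones, against 62.7%. Directions there need not match the TMM fold changes above. The genes hH3 and pma-1, for example, had TMM fold changes above 0 but were higher in uncrossed cultures there. Among members apart in the authors' deposited table, the CPM of the groups overlapped in 117 (60.3%), against 55.9% of all genes apart there. The sources used here do not say whether its limits include the spread between plates.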

How the data were processed

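Per the labels' protocols, the 5 libraries were stranded Illumina libraries of total RNA, sequenced from both ends at 101 bp. The submitters' processing notes name CASAVA 1.8.2, fastp, HISAT2 2.1.0 and StringTie 1.3.3b without roles. Not given in the sources used here are the genome build, the annotation and whether counting used strand, so no coordinates are printed. The values used are raw whole-number counts, deposited by the authors for each gene, and a deposited table with a ratio per gene and stage, per the file headers. A row named mat_a1, with 6 values for 5 columns and none above 137, was left out. RefSeq assembly NC12 gave symbols, classes and spans for 10590 of 10591 rows.

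The test was edgeR 4.0.16 (R 4.3.3): filterByExpr, TMM, robust quasi-likelihood, the group alone, two-sided, threshold 0.05. Shares of single genes used an exact permutation test over the libraries. The same permutation test was run on the members' summed share (p = 0.3, or 0.1 without eas). It is not relied on, since these levels chose the members. That limit also holds for eas and tef-1, which rank 3 and 4 by level. P-values measure the spread between plates. Alternatives were DESeq2 1.42.0 and its size factors, limma-voom (limma 3.58.1), other filters and memberships, no rRNA rows, plain library sizes, a block for the replicate number, and leaving out 1 library in turn. Members and lists were chosen with earlier results of these data known. Genes were named by level (first 10), smallest p (5 in each direction), largest and smallest spread (5 each), the 2 to 4 most abundant members per list and the rank limit; other members were named after their values were seen. Lists were built from symbols, because the gene table holds no product names.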

Additional observations from a re-analysis of the deposited data

How the results depend on the processing

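No member was called by edgeR with DESeq2 size factors, plain library sizes, no filter, 1 CPM in 2 libraries or no rRNA rows, by limma-voom, or in the memberships by uncrossed mean, median, span, 100 rows or 400 rows. DESeq2 called 33. Leaving out 1 library at a time gave 0 to 16 members called: 16 without crossed replicate 1, 4 without uncrossed replicate 3 and 0 otherwise. The plates share only a replicate number. Deviations from the group mean correlated between same-numbered libraries at 0.257 (number 1) and 0.224 (number 3) over 8638 genes. With 2 uncrossed libraries their deviations are exact opposites, so these correlations depend on each other and are not 2 separate signs of a pairing. A fit with the replicate number as a block called 5 members (2.5% of members, where it called 3.08% of all genes). These were acw-4, acw-6 and NCU09049 higher (against 1.5%) and NCU00865 and NCU01348 lower (against 1.57%). The difference in the members' share of non-rRNA counts, 1.45 percentage points, became -0.216 when members were chosen on the uncrossed mean and -0.815 without eas. It ran from 0.678 to 2.22 with 1 library left out. Members were chosen on a mean that includes the crossed libraries. The cause of this difference in share was not tested. For the 26 members with a fold change in the text, all 338 values from 13 alternative fits kept their direction. This was largely fixed in advance. All but met-8 had groups that did not overlap, so leaving out 1 library could hardly turn them. Members without such groups could turn: over the alternative fits poi-2 ran from -0.82 to 0.53 and app from -1.25 to 0.11. Every member had at least 5522 counts in each library.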
